A study of Mus musculus with 19 samples.

Results

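The CXCR3 chemokine axis comprises 3 secreted ligands, Cxcl9, Cxcl10 and Cxcl11, and the receptor Cxcr3. These 4 genes were found among the 55487 genes of the count table by matching their Ensembl IDs, without the version, to mouse gene symbols. No measured value entered that matching, but the 4 genes themselves were chosen with earlier results of these data known. Their transcripts were counted by RNA sequencing in 19 samples labelled oral squamous cell carcinoma, from C57BL/6J mice that drank 4-nitroquinoline 1-oxide (4NQO), a DNA-damaging carcinogen, at 100 µg/ml for 10 weeks from the age of 6 weeks, followed by fresh water. All groups shared that strain and that carcinogen. There were 4 regorafenib samples (5 mg/kg/day), 3 anti-PD1 samples, 5 samples of anti-PD1 with regorafenib (the combination, with no dose of its own in the labels), 3 anti-CD40 agonist samples and 4 vehicle samples. Regorafenib is a multikinase inhibitor given by mouth, anti-PD1 blocks an inhibitory receptor of T cells, and a CD40 agonist activates antigen-presenting cells. Antibody doses and treatment times are not given in the labels, and the treatment text leaves out the anti-CD40 agonist, which the sample titles name. Nothing in the labels says that each sample came from a different mouse, so the spread that the p-values rest on may be partly technical.

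The ligands belong to the CXC chemokines, small secreted proteins that guide leukocytes. Interferon-gamma from T and NK cells acts through transcription factors such as IRF1 on macrophages, dendritic cells, epithelium and endothelium, and these cells then release CXCL9 and CXCL10. CXCR3 is a G protein-coupled receptor on activated T cells and NK cells, which move toward its ligands. In tumours of mice and humans, CXCL9 and CXCL10 are known for drawing in effector T cells, and in mouse tumour models CXCR3 is known to contribute to responses to PD1 blockade.

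The 3 ligand genes lie side by side on the minus strand of mouse chromosome 5 (GRCm38, GENCODE M21 gene models, each span covering exons, introns and untranslated regions). Cxcl9 (ENSMUSG00000029417.9) spans chr5:92321347-92328079, Cxcl10 (ENSMUSG00000034855.13) spans chr5:92346638-92348889 and Cxcl11 (ENSMUSG00000060183.6) spans chr5:92359544-92365485. Cxcr3 (ENSMUSG00000050232.6) is on chromosome X at chrX:101731535-101734269, also on the minus strand. Art3, an ADP-ribosyltransferase gene on the opposite strand, runs through the Cxcl10 and Cxcl11 region and shares 133 exonic bases with Cxcl10 and 0 with Cxcl11. The predicted gene Gm2673, a processed pseudogene on the opposite strand, shares 1582 exonic bases with Cxcl11. The library kit keeps the strand, but the strand setting of the counting is not given in the sources used here, so the counts of these overlapping genes are uncertain. Gm2673 itself had 0 to 4 counts per library.

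C57BL/6 mice are known to carry a shifted reading frame in Cxcl11 and to make no CXCL11 protein, and the annotation calls the gene a polymorphic pseudogene. The first coding exon, chr5:92363155-92363214 on the minus strand, is shown because the 2 transcript models of the gene part there. Model Cxcl11-202 reads through the exon, and model Cxcl11-201 skips the 2 bases at positions 92363177 and 92363178, printed in capitals in the first of the lines that follow (GRCm38, 5′ to 3′).
Cxcl11-202: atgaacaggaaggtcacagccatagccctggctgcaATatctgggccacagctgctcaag
Cxcl11-201: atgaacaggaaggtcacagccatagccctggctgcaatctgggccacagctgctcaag
Read from the start codon, Cxcl11-202 holds 36 codons before its first stop, and Cxcl11-201, with the frame restored, holds 99. Any Cxcl11 RNA in these mice therefore comes from a gene whose genomic frame is broken, and whether all counts given to Cxcl11 are such RNA was not tested.

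The promoters of the ligands that moved together are shown for the elements through which interferon and NF-kappa-B are known to act on Cxcl10 in mouse and human cells. Each is the stretch of 250 bases before the RefSeq start (GRCm38.p6, minus strand, 5′ to 3′), chr5:92348890-92349139 for Cxcl10 and chr5:92328080-92328329 for Cxcl9. Capitals mark motif matches.
Cxcl10: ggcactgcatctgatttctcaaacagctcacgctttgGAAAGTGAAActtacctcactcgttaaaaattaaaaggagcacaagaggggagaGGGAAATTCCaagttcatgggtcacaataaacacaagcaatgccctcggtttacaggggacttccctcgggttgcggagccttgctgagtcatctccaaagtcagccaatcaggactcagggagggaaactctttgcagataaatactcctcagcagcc
Cxcl9: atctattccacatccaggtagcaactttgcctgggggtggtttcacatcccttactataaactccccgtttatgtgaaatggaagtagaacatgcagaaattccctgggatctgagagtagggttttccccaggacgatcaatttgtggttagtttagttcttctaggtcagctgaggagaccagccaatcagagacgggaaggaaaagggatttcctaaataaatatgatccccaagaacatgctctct
Both strands were searched for 3 motifs. The core of the interferon-stimulated response element was taken as GAAA and GAAA with 2 bases of any kind between them, the kappa-B motif as GGGA and TTCC with 2 bases between them, and the gamma-activated site as TTCNNNGAA. The Cxcl10 window held the response element core at -213 to -204 and the kappa-B motif at -159 to -150 from the start, and these matches do not overlap. Among 32851 mouse promoter windows of the same length, 2.98% held that core, 1.21% the kappa-B motif and 7.02% the gamma-activated site. None of the 3 spellings occurred in the Cxcl9 window or in the Cxcr3 window. The search misses elements spelled otherwise, so a window without a match may still hold such an element. No promoter of Cxcl11 was analysed.

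Library totals ran from 16776177 to 24969492 counts. Levels are counts-per-million after scaling between libraries (CPM), and levels of different members are set side by side per kilobase of exon. Sums over gene lists, the levels of Art3 and ratios of counts are not scaled by exon length. The 4 members were among the 16909 genes that passed a filter on low counts. Genes of squamous epithelium, the labelled tissue, were high in all libraries (8 genes, 11800 to 25580 CPM in sum), and so were skeletal muscle genes (13 genes, 27620 to 57460 CPM). Salivary gland genes (12 genes) ran from 38.6 to 17600 CPM in sum over the libraries. B and plasma cell genes were at 2.29 CPM or less in sum. In such bulk samples, fewer cells of a type and less RNA per cell cannot be told apart.

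Cxcl9 and Cxcl10 were the members that differed among the 5 treatments, and both were highest with anti-PD1 alone. Cxcl9 measured 21.4, 22.4 and 44.7 CPM in the anti-PD1 libraries, against 1.99, 4.48, 8.10 and 2.96 CPM in the vehicle libraries. Each anti-PD1 library lay above every vehicle library. The regorafenib libraries had 0.745, 6.20, 3.21 and 8.73 CPM of Cxcl9, a range that takes in that of vehicle. With the combination Cxcl9 was at 14.4, 8.81, 7.74, 23.3 and 5.43 CPM, and 3 of these 5 libraries lay above the highest vehicle library. The anti-CD40 libraries had 12.5, 2.35 and 10.8 CPM, with 1 of the 3 inside the vehicle range.

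Cxcl10 followed the same order at its top. It stood at 13.7, 10.96 and 19.6 CPM in the anti-PD1 libraries, against 0.755, 2.27, 3.25 and 1.71 CPM in the vehicle libraries, again without overlap. Regorafenib gave 0.631, 2.26, 1.86 and 3.10 CPM of Cxcl10, much the same span as vehicle. The combination libraries parted into a high pair, replicates 1 and 4 at 9.48 and 9.05 CPM, and 3 low ones at 1.66, 1.78 and 1.99 CPM, which lie inside the vehicle range. Replicates 1 and 4 were also the highest of the combination for Cxcl9. The anti-CD40 libraries showed a like spread, at 8.77, 1.37 and 5.99 CPM, and replicate 2 was lowest of the 3 for both genes.

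**Figure D1:**
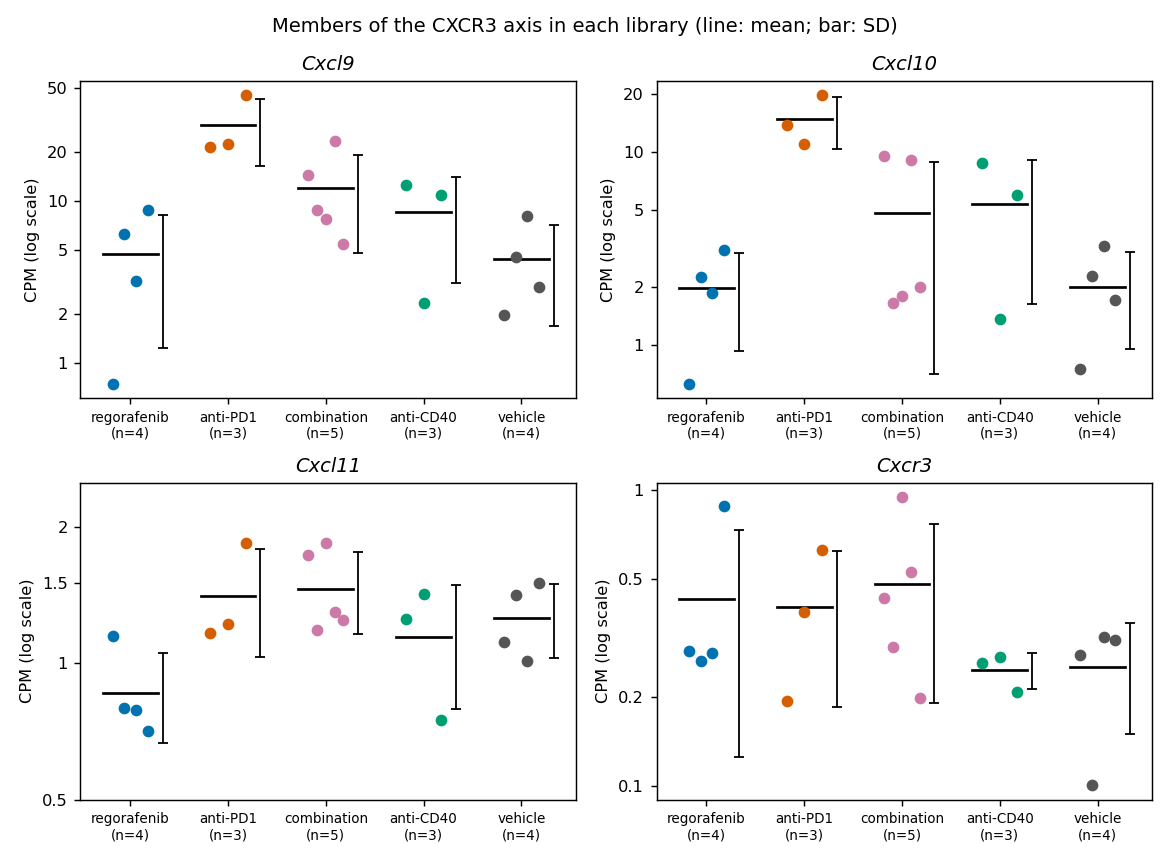
CPM (log scale) of Cxcl9, Cxcl10, Cxcl11 and Cxcr3 in the 19 libraries, 1 point per library, with the arithmetic mean of each group as a line and its SD as a bar. For Cxcl9 and Cxcl10 all 3 anti-PD1 libraries sit above all 4 vehicle libraries, and for Cxcl10 the combination libraries part into 2 high and 3 low ones.

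By group mean, Cxcl9 ran in the order anti-PD1 (29.5 ± 13.2 CPM, SD, n = 3), combination (11.9 ± 7.17, n = 5), anti-CD40 (8.56 ± 5.45, n = 3), regorafenib (4.72 ± 3.48, n = 4) and vehicle (4.38 ± 2.68, n = 4). Of the neighbours in that order, anti-PD1 and the combination alone differed by more than the larger of their SDs, and their libraries still overlapped. Cxcl10 ran in the order anti-PD1 (14.7 ± 4.40 CPM, n = 3), anti-CD40 (5.38 ± 3.74, n = 3), combination (4.79 ± 4.09, n = 5), vehicle (2.00 ± 1.04, n = 4) and regorafenib (1.96 ± 1.03, n = 4). There every anti-PD1 library lay above every anti-CD40 library, as in 5.75% of genes, and the other neighbours were within their spread. Per kilobase of exon, the level in the anti-PD1 group was 9.78 CPM for Cxcl9 and 6.55 for Cxcl10, against 1.45 and 0.886 in the vehicle group.

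In edgeR's quasi-likelihood test for any difference among the 5 groups, with Benjamini-Hochberg adjustment over all tested genes, 2 of the 4 members passed the threshold of 0.05, where 3.94% of all tested genes did. These were Cxcl10 (adjusted p = 0.0452) and Cxcl9 (adjusted p = 0.0491). Both p-values lay close to the threshold, and both calls were lost under a robust estimate of the dispersion, at 0.0644 and 0.0746. They were also lost with a skeletal muscle score as a covariate (0.113 and 0.1), where 20 of all 16909 genes were called, and without any of 13 single libraries. Among these were each regorafenib, anti-PD1 and vehicle library, and anti-PD1 replicate 3 gave the highest p for each gene when left out (0.0943 and 0.118). Cxcl11 (adjusted p = 0.17) and Cxcr3 (adjusted p = 0.475) did not pass.

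Against vehicle, the fitted log2 change with anti-PD1 was 2.77 ± 0.65 (SE) for Cxcl9, a 6.80-fold difference, and 2.90 ± 0.68 for Cxcl10, a 7.49-fold difference. Neither passed in edgeR's quasi-likelihood test (adjusted p = 0.178 and 0.172, unadjusted p = 0.000537 and 0.000486), in a comparison where 0.00591% of genes did. Among the 16909 genes they ranked 50 and 47 by p. DESeq2 called both, at adjusted p of 0.0427 and 0.035, and limma with sample weights called neither. Over all genes in this comparison, 1605 of 16909 had an unadjusted p below 0.05 in edgeR, DESeq2 called 70 of 16303 and limma 3. Higher in 3 of 3 anti-PD1 libraries than in every vehicle library was true of these 2 members and of 4.59% of all genes. An exact permutation test of log2 CPM, two-sided, gave p = 0.0571 for each gene, the smallest p that 3 against 4 libraries allow, and 0.152 after Benjamini-Hochberg adjustment over the 8 tests of both genes in the 4 treatments. Markers of other cells were summed beside these ligands, and none of the macrophage or dendritic cell genes passed edgeR's test in this comparison. Summed macrophage genes (8) ran from 101 to 134 CPM with anti-PD1 and from 78.2 to 108 CPM in vehicle, and these ranges overlap. Summed dendritic cell genes (8) ran from 19.6 to 24.6 CPM with anti-PD1 and from 13.0 to 16.2 CPM in vehicle. Their part in the ligand levels was not tested.

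With the combination the fitted changes against vehicle were smaller than those with anti-PD1, at 1.46 ± 0.60 for Cxcl9 and 1.30 ± 0.63 for Cxcl10 on the log2 scale. No member passed edgeR's test here (adjusted p = 0.377 and 0.463 for these ligands), where 0.0237% of genes did. Of the 4 members, 1 had an unadjusted p below 0.05, beside 1864 of all 16909 genes. DESeq2 and limma also called 0 members, where DESeq2 called 115 of 16940 genes and limma 5 of 16909. The exact permutation test gave p = 0.0476 for Cxcl9 and p = 0.286 for Cxcl10, adjusted to 0.152 and 0.457 over the 8 tests. No member had every combination library above every vehicle library, as 1.73% of genes did.

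Set directly against anti-PD1 alone, the combination was lower by 1.30 ± 0.58 in Cxcl9 (log2 change -1.30) and by 1.60 ± 0.60 in Cxcl10 (log2 change -1.60). For Cxcl10 every combination library lay below every anti-PD1 library, the highest at 9.48 CPM and the lowest anti-PD1 library at 10.96 CPM, as was true of 2.84% of all genes. Neither difference passed in edgeR's quasi-likelihood test (adjusted p = 0.45 and 0.337), nor in DESeq2 or limma, and 0.00591% of genes were called. The interaction of regorafenib and anti-PD1, the extent to which the combination departs from the sum of the log2 changes of the single drugs, was -1.45 ± 0.86 for Cxcl9 and -1.62 ± 0.91 for Cxcl10. It did not pass either (adjusted p = 0.432 and 0.4, edgeR), where 0.461% of genes did. For the interaction 0 members had an unadjusted p below 0.05, beside 2687 of all 16909 genes. DESeq2 and limma called 0 members, beside 566 of 14394 and 200 of 16909 genes. These comparisons share the anti-PD1, combination or vehicle libraries, so their values are not separate evidence.

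**Figure D2:**
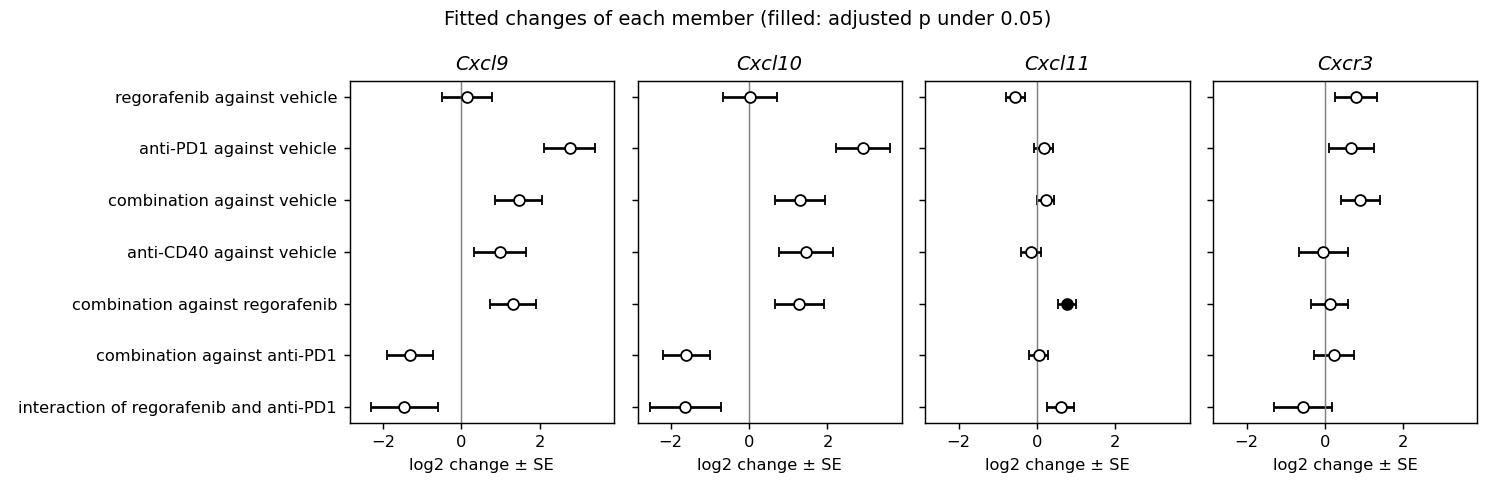
Log2 change with its SE (edgeR) for the 4 members in 7 comparisons, where a filled point passed the adjusted threshold of 0.05. Cxcl9 and Cxcl10 are near 3 for anti-PD1 against vehicle and near 0 for regorafenib against vehicle, and the filled point is Cxcl11 in the combination against regorafenib.

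Anti-CD40 agonist gave log2 changes of 0.99 ± 0.66 for Cxcl9 and 1.45 ± 0.69 for Cxcl10 against vehicle (adjusted p = 0.849 and 0.798, edgeR). In that comparison 0 genes were called (0.0%), while 1048 had an unadjusted p below 0.05, DESeq2 called 4 and limma 2, none of them a member. Cxcl10 was the 1 member with an unadjusted p below 0.05, at 0.0498. No member had all anti-CD40 libraries above vehicle, as 3.29% of genes did. The log2 change of Cxcl10 was 0.92 without anti-CD40 replicate 1, 1.91 without replicate 2 and 1.37 without replicate 3 (adjusted p = 1.0, 0.855 and 0.482 in that order).

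Regorafenib alone left Cxcl9 and Cxcl10 near their vehicle levels, with log2 changes of 0.15 ± 0.63 and 0.02 ± 0.68 (adjusted p = 0.911 and 0.991, edgeR). In this comparison 6.13% of genes were called and 8.63% had every regorafenib library above every vehicle library, but no member did either. Changes of 1 log2 unit in either direction lay within 2 SE of these estimates. The sign of both changed with the tool and with the library left out. Against the same regorafenib libraries, the combination gave 1.32 ± 0.59 for Cxcl9 and 1.28 ± 0.63 for Cxcl10 (adjusted p = 0.152 and 0.188, edgeR), in a comparison where 10.1% of genes were called.

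Cxcl9 and Cxcl10 varied together from library to library within groups. With each group's mean subtracted, their log2 CPM gave Pearson's r = 0.891 and Spearman's rho = 0.891 over the 19 libraries (permutation p adjusted over the 6 pairs of members, 0.00018 and 0.0003). Without regorafenib replicates 1 and 4, the libraries farthest from the median of Cxcl9, r was 0.895. None of the other 5 pairs passed, with r between -0.352 and 0.319 and adjusted p of at least 0.483. The ratio of Cxcl9 to Cxcl10 per kilobase had a median of 1.67 with regorafenib, 1.52 with anti-PD1, 2.03 with the combination, 1.28 with anti-CD40 and 1.67 with vehicle. It was widest within the combination, from 1.13 to 3.97, where the 3 libraries low in Cxcl10 kept 5.43 to 8.81 CPM of Cxcl9.

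The 5 genes whose within-group pattern was most like that of Cxcl9, by Pearson's r of centred log2 CPM over 19 libraries and among 13427 genes, were Cd3g (0.894), Gbp7 (0.863), Il2rg (0.853), Tgtp1 (0.841) and Gbp2 (0.84). Cd3g encodes a chain of the T-cell receptor complex and Il2rg the shared gamma chain of several interleukin receptors. For Cxcl10 they were Tgtp1 (0.893), Iigp1 (0.885), Gbp7 (0.875), Ifi47 (0.869) and Gbp2 (0.867). Gbp2 and Gbp7 encode guanylate-binding proteins, and Tgtp1, Iigp1 and Ifi47 encode immunity-related GTPases, families known to be induced by interferon-gamma. The values share libraries and depth, and the genes were picked as the highest of many, so they are given as a description.

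**Figure D3:**
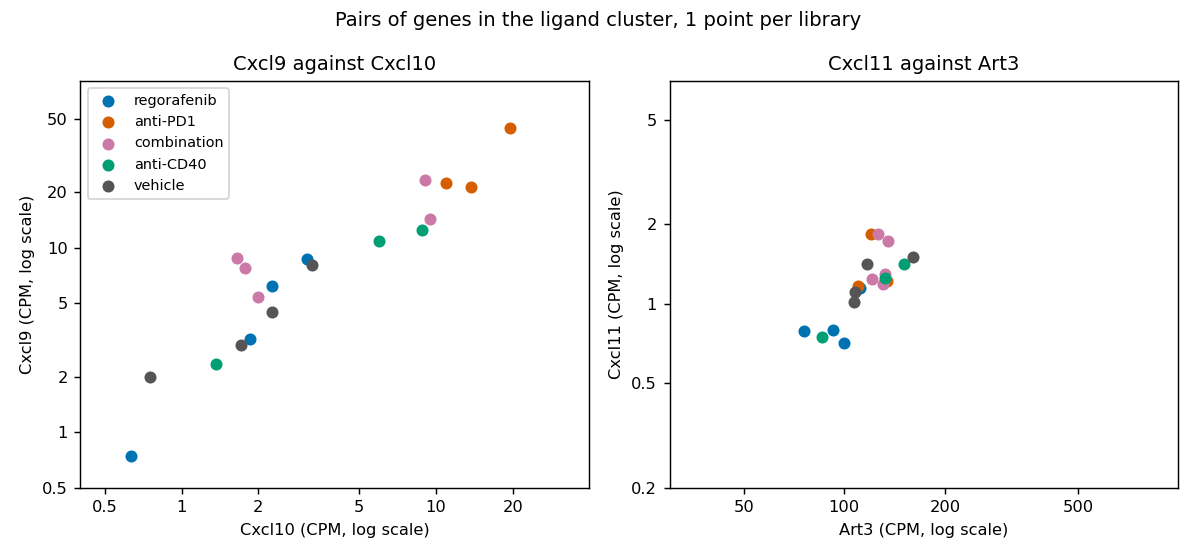
CPM on log scales of Cxcl9 against Cxcl10 (left) and of Cxcl11 against Art3 (right), 1 point per library, coloured by group. Cxcl9 and Cxcl10 climb together over a wide span, 60.0-fold and 31.0-fold from lowest to highest library, while Cxcl11 and Art3 stay within 2.59-fold and 2.13-fold.

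Cxcl11, the third ligand, stayed within a narrow band. It measured 1.17, 1.22 and 1.84 CPM with anti-PD1 and 1.11, 1.41, 1.01 and 1.504 CPM with vehicle, and these groups overlapped. Regorafenib gave 1.15, 0.797, 0.788 and 0.709 CPM, with 3 of the 4 libraries below every vehicle library. The combination gave 1.73, 1.18, 1.84, 1.30 and 1.25 CPM and anti-CD40 gave 1.25, 1.42 and 0.748 CPM. The counts behind these levels ran from 14 to 41 per library. Its order by mean was combination (1.46 ± 0.303 CPM, SD, n = 5), anti-PD1 (1.41 ± 0.375, n = 3), vehicle (1.26 ± 0.235, n = 4), anti-CD40 (1.14 ± 0.350, n = 3) and regorafenib (0.860 ± 0.195, n = 4), with no neighbours apart by more than their spread.

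The log2 change of Cxcl11 with anti-PD1 was 0.17 ± 0.25 (adjusted p = 0.862, edgeR), and with regorafenib it was -0.56 ± 0.25 (adjusted p = 0.172). It was 0.22 ± 0.22 with the combination (adjusted p = 0.803) and -0.16 ± 0.26 with anti-CD40 (adjusted p = 0.93). The combination against regorafenib was the 1 comparison of a pair of groups in which a member passed in edgeR. There Cxcl11 was higher by 0.77 ± 0.23 on the log2 scale, 1.71-fold (adjusted p = 0.0441, edgeR), beside the 10.1% of genes called. Every combination library lay above every regorafenib library, as in 7.24% of genes. In the same comparison 7 of 13 skeletal muscle genes also rose, with a median log2 change of 0.55 over the list and -0.01 over all genes, and Ryr1, a calcium release channel of muscle, rose by 0.65 ± 0.10 (adjusted p = 0.00487). Summed muscle genes ran from 38990 to 52490 CPM with the combination and from 27620 to 35050 CPM with regorafenib. With the muscle score as a covariate the change of Cxcl11 was 0.35 (adjusted p = 0.652), and 5 of all 16909 genes were called, against 1714 without it. That score ran from 10.065 to 10.559 with regorafenib and from 10.553 to 11.109 with the combination, so it went largely with the treatment. The part of muscle in the change of Cxcl11 was not tested. The call of Cxcl11 was also lost with no filter on low counts (0.081), without regorafenib replicate 2 (0.0876), 3 (0.0946) or 4 (0.128) and without combination replicate 1 (0.109) or 3 (0.106). Fits without 1 library called 439 to 1717 of all genes in this comparison. Against anti-PD1 alone, the combination differed by 0.05 ± 0.24 in Cxcl11 (adjusted p = 0.974), and the interaction was 0.60 ± 0.34 (adjusted p = 0.405).

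Art3, which runs opposite to Cxcl11 and Cxcl10, was far more abundant, at 94.9 ± 15.1 CPM with regorafenib (n = 4), 121 ± 12.1 with anti-PD1 (n = 3), 129 ± 5.65 with the combination (n = 5), 123 ± 33.7 with anti-CD40 (n = 3) and 123 ± 25.7 with vehicle (SD, n = 4). For every 1000 counts of Art3 there were 7.1 to 15.3 counts of Cxcl11 over all libraries, a 2.16-fold range. For Cxcl10 the same ratio ran from 5.65 to 163, a 28.9-fold range. In CPM alone Cxcl11 ranged 2.59-fold, Art3 2.13-fold and Cxcl10 31.0-fold, so these ratios cannot show whether counts of a ligand follow Art3. Whether reads of Art3 or of Gm2673 were counted as Cxcl11 was not tested. The 5 genes most like Cxcl11 within groups were Eif3j1 (r = 0.894), Fkbp3 (0.876), Fam228b (0.862), Mtif2 (0.854) and Ppp3cc (0.849). None is on the fixed lists of interferon-gamma targets or immune cells. Per kilobase, Cxcl11 averaged 0.227 to 0.385 CPM over the groups.

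Cxcr3, the receptor, was near the limit of detection, with 2 to 20 counts per library. Its levels were 0.287, 0.266, 0.282 and 0.887 CPM with regorafenib, 0.194, 0.388 and 0.628 CPM with anti-PD1, 0.433, 0.296, 0.947, 0.530 and 0.199 CPM with the combination, 0.261, 0.273 and 0.208 CPM with anti-CD40, and 0.278, 0.101, 0.320 and 0.311 CPM with vehicle. All groups overlapped with vehicle. By mean the order was combination (0.481 ± 0.290 CPM, SD, n = 5), regorafenib (0.430 ± 0.304, n = 4), anti-PD1 (0.403 ± 0.217, n = 3), vehicle (0.252 ± 0.103, n = 4) and anti-CD40 (0.247 ± 0.0347, n = 3), with no neighbours apart by more than their spread. Regorafenib replicate 4 held the regorafenib mean up, and the other 3 libraries of that group were between 0.266 and 0.287 CPM.

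The log2 change of Cxcr3 against vehicle was 0.79 ± 0.53 with regorafenib, 0.68 ± 0.58 with anti-PD1, 0.90 ± 0.51 with the combination, and -0.04 ± 0.63 in the anti-CD40 group. None passed (adjusted p = 0.375, 0.742, 0.543 and 0.996 in that order, edgeR). The combination differed by 0.12 ± 0.46 from regorafenib (adjusted p = 0.899) and by 0.23 ± 0.51 from anti-PD1 (adjusted p = 0.925), and the interaction was -0.56 ± 0.74 (adjusted p = 0.753). These estimates rest on 2 to 20 counts per library. Set against 12 T-cell genes, Cxcr3 had a median of 10.4 counts per 1000 with regorafenib, 13.3 with anti-PD1, 15.6 with the combination, 11.8 with anti-CD40 and 12.9 with vehicle, each inside the range of the vehicle libraries (4.82 to 14.6) except the combination. The 5 genes most like it within groups were Slc12a4 (r = 0.85), Ehd2 (0.846), Dock6 (0.841), Tulp3 (0.833) and Inf2 (0.829), values that rest on few Cxcr3 counts.

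Genes of interferon-gamma signalling, the pathway upstream of the ligands, were measured beside them. Ifng itself had 6 counts in all with regorafenib, 8 with anti-PD1, 7 with the combination, 3 with anti-CD40 and 0 in the 4 vehicle libraries, too few to be tested. Of the 8 tested genes of this list, 1 passed edgeR's test for any difference among the groups, beside 3.94% of all genes. DESeq2 called 2 of the list and limma 0, beside 2434 of 15668 and 2889 of 16909 genes. With anti-PD1 against vehicle 0 of the 8 passed in edgeR and 3 had an unadjusted p below 0.05, beside 1605 of 16909 genes. DESeq2 called 1 there, beside 70 of 16303 genes, and limma 0. The gene that passed in edgeR for any difference among the groups was Irf1, a transcription factor that acts on the ligand promoters (adjusted p = 0.0438). It had 25.8 ± 5.17 CPM in anti-PD1 (n = 3) and 15.2 ± 2.09 CPM in vehicle (SD, n = 4). The call of Irf1 was lost in limma, with the muscle covariate (20 of all 16909 genes called) and without any of several single libraries, each regorafenib library among them. Without regorafenib replicates 1 to 4 in turn, 55, 198, 111 and 34 of all genes were called, against 666 with all libraries. Ifngr2, a receptor chain, had an adjusted p of 0.233. The median log2 change of the list was 0.05 with regorafenib, 0.30 with anti-PD1 and 0.10 with each of the combination and anti-CD40, beside medians over all genes of no more than 0.01 in size.

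Interferon-gamma target genes other than the ligands also had their highest median change with anti-PD1. Of 14 tested genes of that list, 5 passed the test for any difference among the 5 groups, beside 3.94% of all genes. Gbp2, a guanylate-binding protein gene, had 12.7 ± 3.78 CPM with regorafenib, 42.3 ± 18.8 with anti-PD1, 21.9 ± 7.001 with the combination, 20.4 ± 7.54 with anti-CD40 and 13.4 ± 3.00 with vehicle (SD, adjusted p = 0.0269, edgeR). Gbp5, of the same family, had 7.05 ± 1.99 CPM with anti-PD1 and 3.24 ± 0.682 CPM with vehicle. The immunity-related GTPase gene Igtp had 30.1 ± 13.6 CPM with anti-PD1 and 10.1 ± 3.51 CPM with vehicle. Their adjusted p-values of 0.0381 and 0.0387 are from edgeR's test of any difference among the 5 groups, not of this pair, as is that of Gbp2. The count of 5 was 11 in DESeq2, which called 2434 of 15668 genes, and 1 with the muscle covariate, which called 20 of 16909. It ran from 0 to 8 without 1 library, where 34 to 1813 of all genes were called, against 666 with all libraries. With anti-PD1 replicate 3 left out it was 0, beside 756 of all genes. It was also 0 without regorafenib replicate 1, 3 or 4, beside 55, 111 and 34 of all genes. With anti-PD1 against vehicle alone 0 of the 14 passed in edgeR, although all 14 had an unadjusted p below 0.05, beside 1605 of 16909 genes. DESeq2 called 5, beside 70 of 16303 genes, and limma 0. In 13 of the 14 every anti-PD1 library lay above every vehicle library, beside 4.59% of all genes. The median log2 change of the list was -0.04 with regorafenib, 0.96 with anti-PD1, 0.36 with the combination, and 0.22 in the anti-CD40 group. The list was put together with earlier results of these data known and is not independent evidence of a direction.

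**Figure D4:**
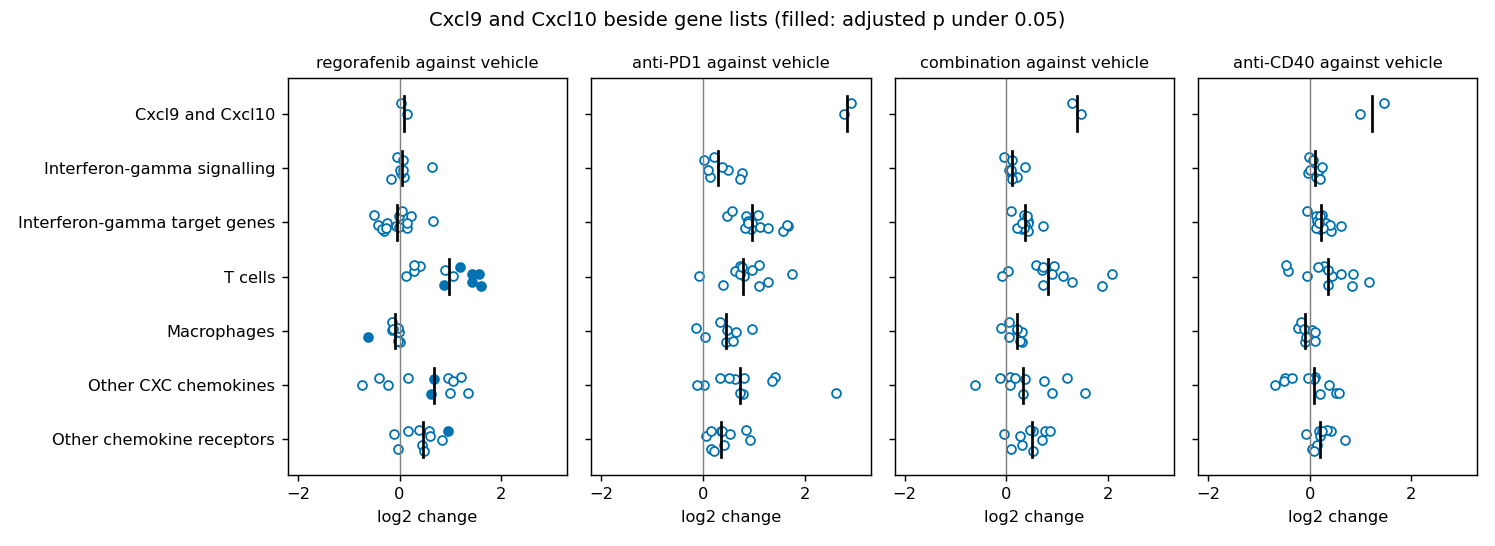
Log2 change against vehicle (horizontal axis) of Cxcl9 and Cxcl10 and of the tested genes of 6 lists in each of the 4 treatments, 1 point per gene with the list's median as a line, where filled points passed the adjusted threshold of 0.05. With anti-PD1, Cxcl9 and Cxcl10 lie beyond 14 interferon-gamma target genes, whose median is 0.96, and with regorafenib 6 T-cell genes are filled while both ligands lie near 0.

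Of 12 T-cell genes, markers of the cells that carry CXCR3, 6 rose with regorafenib against vehicle and 0 fell, where 6.13% of all genes were called, while Cxcl9 and Cxcl10 were near their vehicle levels. Cd3e, a chain of the T-cell receptor complex, had 1.34 ± 0.220 CPM with regorafenib and 0.498 ± 0.191 CPM with vehicle, a log2 change of 1.42 ± 0.28 (adjusted p = 0.0109, edgeR). Cd8b1, a chain of the CD8 coreceptor, had 0.495 ± 0.147 CPM with regorafenib and 0.163 ± 0.0679 CPM with vehicle, a log2 change of 1.56 ± 0.42 (adjusted p = 0.0386). With anti-PD1 0 of the 12 passed, 9 had an unadjusted p below 0.05 (beside 1605 of 16909 genes) and DESeq2 and limma called 0. Cd3e then changed by 1.27 ± 0.30 (adjusted p = 0.172) and Cd8b1 by 1.75 ± 0.44 (adjusted p = 0.193). The median log2 change of the list was 0.97 with regorafenib, 0.79 with anti-PD1, 0.81 with the combination, and 0.36 in the anti-CD40 group. The 12 genes summed to 26.7 to 37.8 CPM with regorafenib, 23.1 to 32.1 with anti-PD1, 24.2 to 33.4 with the combination, 20.2 to 27.6 with anti-CD40 and 20.9 to 24.4 with vehicle. In the regorafenib comparison 6 of 8 squamous epithelium genes also rose and 5 of 13 skeletal muscle genes fell. With the muscle score as a covariate 0 of the 12 T-cell genes were called, beside 36 of all 16909 genes, against 1037 without the score. Without 1 library the count of T-cell genes called ran from 1 to 5, beside 235 to 1113 of all genes. It was 1, Cd3e, without regorafenib replicate 4 or vehicle replicate 4, where 239 and 235 of all genes were called.

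Among cells known to release the ligands, 1 of 8 macrophage genes passed in edgeR in any of the 4 comparisons with vehicle, that with regorafenib, where 6.13% of all genes did. It was Mertk, a receptor for dying cells, which fell by 0.62 on the log2 scale with regorafenib (adjusted p = 0.0336, edgeR). That call was lost with the muscle covariate, which left 36 of all 16909 genes called, and without any 1 of 6 libraries. Fits without 1 library called 235 to 1113 of all genes in that comparison, against 1037 with all libraries. With anti-PD1 6 of the 8 had an unadjusted p below 0.05, beside 1605 of 16909 genes. DESeq2 called 1 of them, beside 70 of 16303 genes, and limma 0. The macrophage list had a median log2 change of -0.09 with regorafenib, 0.46 with anti-PD1, 0.21 with the combination, and -0.08 in the anti-CD40 group. Csf1r, the receptor for macrophage growth factors, had 31.7 ± 3.66 CPM with anti-PD1 and 25.1 ± 3.54 CPM with vehicle (adjusted p = 0.0564 for any difference among the groups). The 6 tested dendritic cell genes gave 0 calls in edgeR with anti-PD1, 3 unadjusted p-values below 0.05, 1 call in DESeq2 and 0 in limma, beside the same shares of all genes. Clec9a and Xcr1, which mark the dendritic cells that cross-present antigen, did not reach the filter, nor did Ncr1, Klrb1c and Eomes of the NK-cell list.

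Other chemokine genes were measured beside the CXCR3 ligands. Of 11 tested CXC chemokines, 2 rose with regorafenib, Cxcl14 by 0.67 ± 0.14 (adjusted p = 0.0155) and Cxcl16, the ligand of CXCR6, by 0.62 ± 0.18 (adjusted p = 0.048), both in edgeR, beside 6.13% of all genes called. Cxcl14, a chemokine of epithelia, had 20.9 ± 2.49 CPM with regorafenib (n = 4) and 13.1 ± 1.71 CPM with vehicle (SD, n = 4). It was also the 1 gene of this list that differed among the 5 groups (adjusted p = 0.0332, beside 3.94% of all genes) and that passed for the interaction, at -0.94 ± 0.20 (adjusted p = 0.0498, beside 0.461%), both in edgeR. With anti-PD1 0 of the 11 passed in edgeR and 3 had an unadjusted p below 0.05, beside 1605 of 16909 genes. DESeq2 called 2 of the 11, beside 70 of 16303 genes, and limma 0. Of 10 tested chemokine receptors other than Cxcr3, 1 rose in the same regorafenib comparison, Cxcr6, by 0.95 ± 0.24 (adjusted p = 0.0314), to 3.60 ± 0.449 CPM against 1.85 ± 0.520 CPM in vehicle. The calls of Cxcl14, Cxcl16 and Cxcr6 were lost with the muscle covariate, under which 36 of all 16909 genes were called with regorafenib. That of Cxcl16 was also lost with no filter and without any 1 of the 8 libraries, and that of Cxcr6 without regorafenib replicate 1, 3 or 4 or vehicle replicate 3 or 4. Fits without 1 library called 235 to 1113 of all genes there, against 1037 with all libraries. The other receptors did not pass in edgeR in any comparison with vehicle. DESeq2 and limma each called 2 of the 10 with regorafenib, Cxcr6 and Cxcr2, beside 1651 of 15031 and 1673 of 16909 genes. DESeq2 called 1 with the combination, beside 115 of 16940 genes. Ccr2, a receptor of monocytes, had 9.95 ± 0.703 CPM with the combination and 6.91 ± 0.888 CPM with vehicle (adjusted p = 0.133 for that pair). Of 6 tested ligands of other T-cell chemokine receptors, none passed in edgeR with anti-PD1, 2 had an unadjusted p below 0.05 (beside 1605 of 16909 genes), and DESeq2 and limma called 0.

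The genes that process or clear the ligands gave no calls. Dpp4, a peptidase known to trim the ligands to forms that no longer activate CXCR3, had 5.55 ± 1.42 CPM with anti-PD1 and 4.74 ± 1.43 CPM with vehicle, a log2 change of 0.23 ± 0.24 (adjusted p = 0.798, edgeR). Ackr3, a scavenging receptor that binds CXCL11 and CXCL12, had 27.4 ± 3.44 CPM with anti-PD1 and 24.6 ± 2.35 CPM with vehicle, a change of 0.15 ± 0.13 (adjusted p = 0.732). Of the 4 genes of that list, 1 had an unadjusted p below 0.05 with anti-PD1, beside 1605 of 16909 genes, and DESeq2 and limma called 0. The 5 genes next to the ligands on chromosome 5, Art3, Sdad1, Nup54, Naaa and Scarb2, had a median log2 change of -0.06 with anti-PD1. They gave 0 calls in edgeR, DESeq2 and limma, beside 1 of 16909, 70 of 16303 and 3 of 16909 genes. Of unadjusted p-values below 0.05 in edgeR they had 0, beside 1605 of 16909 genes. For 5 genes these zeros are near the shares over all genes. In the same comparison Cxcl9 and Cxcl10 differed by 2.77 and 2.90.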

How the data were processed

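Per the labels, the kit used for isolation yields both DNA and RNA, and the library kit is a stranded one that selects poly-A RNA. The submitters' processing notes name cutadapt 2.4, STAR 2.7.2a and the build GRCm38. How reads were counted, with which strand setting and on which annotation, is not given in the sources used here. The deposited table holds the authors' read counts, whole numbers with no normalization, for 55487 genes. GENCODE M21 gave a symbol to 55141 of these IDs once the version was dropped, and 346 stayed without one. Promoters are RefSeq's (GRCm38.p6), with entries for 3 of the 4 members, and exons are from the GENCODE M21 transcripts.

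The table was filtered with filterByExpr and scaled by TMM. A quasi-likelihood model of edgeR 4.0.16 (R 4.3.3), tested on simulated data, then gave each group its mean across all 19 libraries (16909 genes, 14 residual degrees of freedom). Tests are two-sided, and p-values were adjusted with the Benjamini-Hochberg method over the 16909 genes, at a threshold of 0.05. For log2 CPM the prior count was 2. An SE is the size of the log2 change over the square root of F. Up to 3 genes per list were named by their p in the test of any difference, beside a few set reference genes. Mertk, the other neighbours and the genes below the filter were named after their values were seen. As alternatives, the scaling (RLE), the filter (none), the tool (DESeq2 1.42.0, or limma 3.58.1 with sample weights), the samples (only the groups compared, or all but 1 library) and the model (replicate number as a block, salivary gland score or muscle score as a covariate) were changed singly. A robust dispersion estimate was added after seeing the data. The members and the 16 gene lists were chosen with earlier results of these data known. Counts of every pair of libraries within a group differed by more than sampling noise.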

Additional observations from a re-analysis of the deposited data

Results flagged for a closer look

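Cxcr3 in regorafenib replicate 4 stood at 0.887 CPM, far from the other 3 libraries of its group, which lay between 0.266 and 0.287 CPM. Of the 12 sets of values with 4 or more libraries that were looked at for a sample far from the others, it was the 1 found. Chance alone flags about 1 in 20 such sets, so 1 among 12 is not unusual. The value rests on 20 counts of Cxcr3, and without that library the log2 change of Cxcr3 against vehicle was 0.13 (adjusted p = 0.914, edgeR).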

How the results depend on the processing

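Under the alternatives other than leaving out a library, all 20 group levels stayed within 1 SD with scaling by library totals. Cxcl9 and Cxcl10 kept their direction with anti-PD1 against vehicle in all 9 of them, with log2 changes of 2.68 to 2.95 and 2.89 to 3.03, and in every fit without 1 library, at 2.33 to 3.24 and 2.61 to 3.24. DESeq2 called 2 members there. For any difference among the groups, 0 members were called with the muscle covariate or the robust dispersion, and 0 to 2 without 1 library. For the combination against regorafenib, 0 were called with no filter or with the muscle covariate, and 0 to 1 without 1 library. The replicate numbers pair no samples, since same-numbered libraries had correlations of -0.45 to 0.539 (33 pairs, median 0.031). With the replicate number as a block, 0 members were called for any difference (adjusted p = 0.075 for Cxcl9 and 0.0765 for Cxcl10) and 0 for the combination against regorafenib (0.0749 for Cxcl11), and the sign turned for Cxcl10 with regorafenib (-0.02) and Cxcr3 with anti-CD40 (0.14). Signs also turned for Cxcl10 with regorafenib in DESeq2 (-0.027), limma (-0.089) and the muscle fit (-0.42), for Cxcl9 with regorafenib in limma (-0.30) and the muscle fit (-0.45), and for Cxcl11 (0.017) and Cxcr3 (0.054) with anti-CD40 in limma. For Cxcl11 in the combination against anti-PD1 the muscle fit gave -0.031, and the correlation of Cxcl10 with Cxcl11 turned to 0.103 without 2 libraries. Without 1 library, log2 changes spanned 0 for Cxcl10 (-0.29 to 0.36) and Cxcl9 (-0.33 to 0.62) with regorafenib, Cxcl11 with anti-PD1 (-0.077 to 0.291) and anti-CD40 (-0.335 to 0.086), and Cxcr3 with anti-CD40 (-0.293 to 0.078). They also did for Cxcr3 in the combination against regorafenib (-0.25 to 0.77), against anti-PD1 (-0.14 to 0.73) and in the interaction (-0.93 to 0.10), and for Cxcl11 in the combination against anti-PD1 (-0.074 to 0.294). The causes were not tested.

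Counts over all genes moved by more than 1.5 times in 42 of 71 other settings. They ran from 36 to 1673 for regorafenib (1037 as reported), 0 to 70 for anti-PD1 (1), 1 to 115 for the combination (4), 0 to 4 for anti-CD40 (0), 5 to 3052 for the combination against regorafenib (1714), 0 to 94 against anti-PD1 (1), 9 to 566 for the interaction (78) and 20 to 2889 for any difference (666). They also moved by more than 1.5 times in 56 of the fits without 1 library, which reached 0 for the combination, 1 for the interaction, 34 for any difference, 235 for regorafenib and 439 for the combination against regorafenib. Groups of 3 to 5 libraries and 2 to 41 counts of Cxcr3 and Cxcl11 per library limit what could be detected.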
